A study of Rattus norvegicus with 9 samples.

Results

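The SLC25 genes encode the carriers that move nucleotides, metabolites and cofactors across the inner mitochondrial membrane, and their expression was followed in rat primary hippocampal neurons incubated with vehicle, NPCT or PCT. Members were the protein coding genes whose symbol is Slc25a and a number and whose mean expression over the 9 libraries was at least 0.5 FPKM (fragments scaled to transcript length and library depth, the unit of the deposited table). The table lists 46 SLC25 genes, of which 38 reached this minimum, among 15958 of 34092 genes of any kind that did. The 8 below it were Slc25a48, Slc25a45, Slc25a21, Slc25a43, Slc25a41, Slc25a47, Slc25a54 and Slc25a31. The lowest gene kept was Slc25a51 with a mean of 1.03 FPKM, and the highest gene left out was Slc25a48 with a mean of 0.411 FPKM. All 38 members entered the tests.

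PCT is procalcitonin, and NPCT is aminoprocalcitonin, the amino-terminal peptide released from it. Hippocampi of wild-type rat fetuses of embryonic day 17 were dissociated, and the neurons were grown without mitotic inhibitors to 7 days in vitro. Control neurons received vehicle, NPCT neurons 1 nM human NPCT and PCT neurons 1 nM human PCT, the peptides for 24 h, with 3 libraries in each group. The comparisons ask how each peptide changes the transcriptome of these neurons, and whether the fragment and the parent peptide differ. The methods describe RNA from pooled biological triplicates while the labels number 3 replicates per group, so p-values measure the spread between these libraries, which may be technical. The methods give Sprague-Dawley as the strain of the male rats used in the study, and do not give the strain or sex of the fetuses separately.

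A library held between 13573056 and 17211642 fragments counted on genes. All 11 neuronal markers were measured, and their FPKM summed to between 2116 and 2377 per library. Glial genes were measured too. The 10 astrocyte markers summed to between 2150 and 2712 FPKM, and 12 microglia markers to between 15.6 and 49.8 FPKM in 8 libraries and to 199 FPKM in NPCT replicate 3. This library and PCT replicate 3 stood apart from the other libraries of their groups, with a chi-square of the fragments per degree of freedom of 10.6 and 10.8 for NPCT replicate 3 and of 21.6 and 18.9 for PCT replicate 3, against 4.38 and 6.38 between the other 2 libraries of each group.

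SLC25 proteins are built from repeats of a short module and sit in the inner membrane, where most of them exchange a solute of the matrix for one of the intermembrane space. Best known is the ADP/ATP translocase, which exports the ATP made by oxidative phosphorylation, whereas the phosphate carrier supplies phosphate for its synthesis. In brain, the aspartate/glutamate carrier Slc25a12 serves the malate-aspartate shuttle of neurons, and the glutamate carrier Slc25a18 is known as an astrocyte-enriched gene. A few members work elsewhere: Slc25a17 is a peroxisomal carrier and Slc25a46 lies in the outer mitochondrial membrane.

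Levels spanned a wide range and were led by the carriers of ADP, ATP and phosphate. The 3 members with the highest means were Slc25a4, Slc25a3 and Slc25a5, at 373, 242 and 135 FPKM. Together they held 49.7% of the summed member FPKM in control neurons, 52.3% with NPCT and 54.5% with PCT (means of 3 libraries). The sum over all 38 members averaged 1336 ± 6.06 FPKM in the controls, 1477 ± 59.8 FPKM under NPCT and 1488 ± 95.2 FPKM under PCT (SD over 3 libraries). The lowest control sum was 1332 and the highest 1343 FPKM, so that every treated library, from 1421 FPKM upwards, lay above the controls. Without the 3 highest, the other 35 members summed to 668 to 678 FPKM in control, 687 to 727 FPKM in NPCT and 661 to 689 FPKM in PCT libraries, so that their PCT and control sums overlapped. The 13 respiratory subunits encoded by mitochondrial DNA, which are transcribed inside the organelle, had the opposite direction with NPCT. All 13 had lower means than in control neurons. An unadjusted limma p under 0.05 was found for 11 of them, while 14.9% of all genes were lower at this p. As DEGs there were 0, against 0.219% of all genes. The FPKM of the 13 summed to between 36689 and 41968 with NPCT against 53315 to 60590 in control libraries. With PCT the sums were 65501, 55112 and 41960 FPKM, and the lowest came from PCT replicate 3, the library with the highest SLC25 sum (1597 FPKM).

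**Figure D1:**
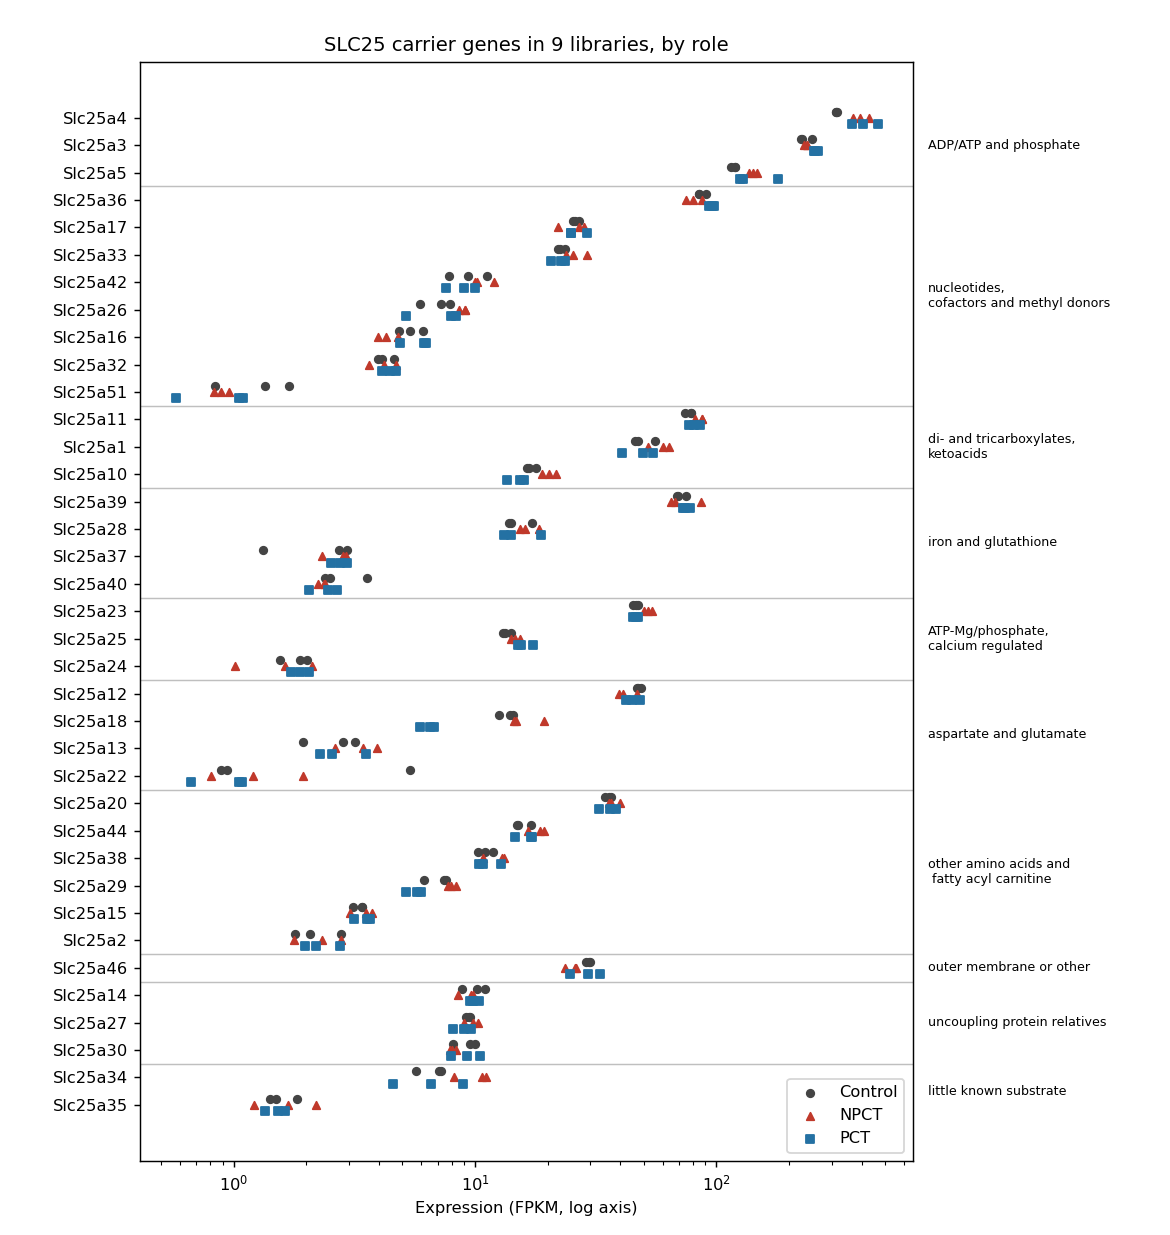
Expression of the SLC25 members described by name (rows, grouped by role) in FPKM on a log axis, with 1 point per library and 3 libraries per group. The ADP/ATP and phosphate carriers lie at the right, the 3 PCT libraries of Slc25a18 (5.92 to 6.77 FPKM) lie apart from the control libraries (12.6 to 14.4 FPKM), and 1 control library of Slc25a22 (5.37 FPKM) lies far from the rest of its group.

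DEGs were genes that moved more than 1.5-fold with an adjusted p not above 0.05 (limma on log2 of FPKM plus 0.1, Benjamini-Hochberg over all 15958 genes). By this rule, 0 of 38 members were DEGs between NPCT and control neurons, against 0.219% of all genes tested (35 genes), and 0 had an adjusted p of at most 0.05 at any fold, against 0.47% of all genes. The second count was 6 with a fit of control and NPCT libraries alone (18.8% of all genes), 4 without PCT replicate 3 (19.3%) and 1, Slc25a4, with limma-voom on fragments (8.79%), and 0 in the other 15 of 18 alternatives. At an unadjusted p under 0.05 in limma, 6 members were higher with NPCT, or 15.8%, against 14.4% of all genes, and 1 was lower, or 2.63%, against 14.9%. The limma-voom fit on fragments also made 0 of the members DEGs. The 3 NPCT libraries all lay above the 3 control libraries in 11 members, or 28.9%, against 20% of all genes, and all lay below in 3 members, or 7.89%, against 20.3%. The median member difference was 0.076 on the log2 scale, from -0.44 to 0.57, beside a median of 0.0062 over all genes. Cell type markers are given beside these values. Of 11 neuronal markers 8 had lower means with NPCT, 6 of them at an unadjusted limma p under 0.05. The other 3 had higher means, with 1 of them, Slc17a7, at this p (log2 difference 0.28). The sum of the 11 was 2116 to 2174 FPKM with NPCT against 2213 to 2303 FPKM in control libraries. Of 10 markers of the oligodendrocyte lineage 9 had higher means, 5 of them at an unadjusted p under 0.05, with sums of 517 to 553 FPKM against 475 to 491 FPKM. All 12 microglia markers had higher means with NPCT (median log2 difference 0.54), 1 of them at an unadjusted p under 0.05, with sums of 43.7, 49.8 and 199 FPKM against 33.0 to 46.4 FPKM. These means lean on NPCT replicate 3. The median level of the list (log2 relative to all libraries) was 0.47, 0.19 and 2.32 in NPCT replicates 1, 2 and 3, against 0.32, 0.03 and 0.44 in the controls. Csf1r, for example, measured 3.20, 3.39 and 13.6 FPKM with NPCT against 4.31, 2.78 and 4.37 FPKM in control libraries. Of 7 fibroblast markers 5 had lower and 2 higher means. Fn1, which was lower, was the 1 at an unadjusted p under 0.05. The fibroblast sums were 40.9 to 45.0 FPKM with NPCT against 58.0 to 62.5 FPKM in control libraries. Of 7 markers of dividing cells 4 had higher and 3 lower means, 1 and 2 of them at an unadjusted p under 0.05. None of these lists held a DEG or a marker at 0, and their part in the NPCT differences was not tested.

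With PCT, Slc25a18 was the 1 member of 38 that was a DEG, a share of 2.63% against 2.31% of all genes (368 genes), and it was also the 1 member with an adjusted p of at most 0.05 at any fold, against 4.2% of all genes. Slc25a4 joined it in 4 of 18 alternatives. Unadjusted p-values under 0.05 were found for 3 members with higher values, or 7.89%, against 10.1% of all genes, and for 3 with lower values, or 7.89%, against 8.78%. All PCT libraries lay above all controls in 5 members, or 13.2%, against 13.1% of all genes, and below in 3, or 7.89%, against 11.9%. The median member difference was 0.0071 on the log2 scale, beside 0.0046 over all genes.

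Between the peptides, Slc25a18 was again the 1 DEG among the members, or 2.63% against 5.75% of all genes (918 genes). Without the fold limit, 4 members had an adjusted p of at most 0.05, or 10.5%, against 16.3% of all genes. They were Slc25a18, Slc25a10 and Slc25a29, higher with NPCT, and Slc25a36, lower with NPCT. Slc25a18 and Slc25a10 stayed at or below 0.05 in all 18 alternatives, Slc25a29 in 14 and Slc25a36 in 8, and the number of members ranged from 2 to 9, the latter without PCT replicate 3, where 29.1% of all genes passed. Between the peptides 9 of 10 astrocyte markers were higher in mean with NPCT (median log2 difference 0.46, 3 DEGs), as were all 12 microglia markers (2.09, 8 DEGs). Of 11 neuronal markers 6 were lower and 5 higher, with 0 DEGs. Of 7 fibroblast markers 6 were lower, 1 of them as a DEG, and 1 was higher. All 13 respiratory subunits of the mitochondrial genome were lower, 4 of them as DEGs. The part of these lists in the member results was not tested. At an unadjusted p under 0.05, 7 members were higher with NPCT, or 18.4%, against 15.6%, and 3 were lower, or 7.89%, against 17.5%. The groups did not overlap in 6 members that were higher with NPCT, or 15.8%, against 15.4% of all genes, and in 3 that were lower, or 7.89%, against 18%. Both peptides are set against the same control libraries, so their differences from control are given side by side.

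**Figure D2:**
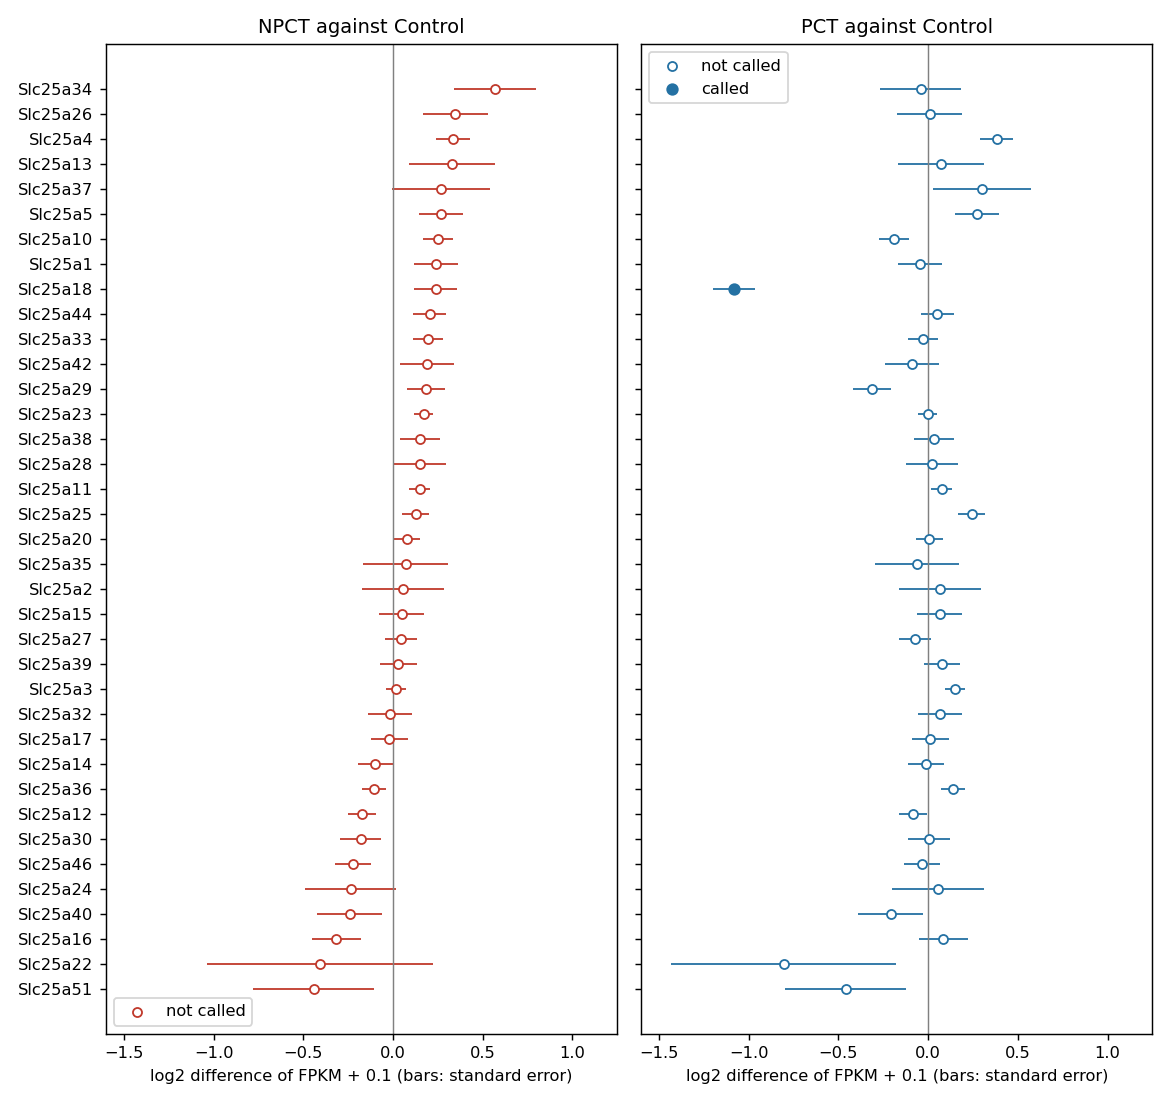
Differences of log2 (FPKM + 0.1) from control for the members described by name with NPCT (left) and PCT (right), in the order of the NPCT differences, with bars of 1 standard error and 3 libraries per group. The filled point is the DEG, Slc25a18 with PCT at -1.08, and the other members lie between -0.81 and 0.57 in both panels.

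Among the aspartate and glutamate carriers, Slc25a18 fell with PCT. This gene (ENSRNOG00000042731, chromosome 4 from 153330069 to 153350446 on the plus strand of Rnor_6.0) encodes a carrier that brings glutamate into the matrix together with a proton. It measured 12.6, 13.9 and 14.4 FPKM in the control libraries, 14.6, 14.8 and 19.3 FPKM with NPCT and 6.49, 6.77 and 5.92 FPKM with PCT. Every PCT library was thus below every other library, by a wide margin, whereas the highest value came from NPCT replicate 3. The log2 difference between PCT and control neurons was -1.08 (standard error 0.12, limma adjusted p = 0.00202), which is 0.472 of the control level. Between NPCT and PCT neurons the log2 difference was 1.32 (standard error 0.12, limma adjusted p = 0.000544), or 2.50-fold. From control to NPCT neurons it was 0.24 (standard error 0.12, limma adjusted p = 0.212), or 0.11 without NPCT replicate 3. The values rest on 189 to 584 fragments per library.

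Astrocyte markers moved in the same direction as Slc25a18 with PCT, and in bulk samples fewer cells of a type and less RNA per cell cannot be told apart. Of the 10 markers, 9 had lower means with PCT and 5 were DEGs: Aldoc (log2 difference -0.83), Aldh1l1 (-0.83), Slc1a2 (-0.73), Aqp4 (-0.64) and S100b (-0.60). Gfap, the intermediate filament of astrocytes, had a difference of 0.25 (limma adjusted p = 0.147). The summed marker FPKM ranged from 2493 to 2673 in control, from 2452 to 2712 in NPCT and from 2150 to 2217 in PCT libraries, and no marker was at 0. The median difference of the list was -0.46 with PCT and 0.08 with NPCT. Microglia markers summed to between 33.0 and 46.4 FPKM in control, between 43.7 and 199 FPKM in NPCT and between 15.6 and 20.4 FPKM in PCT libraries. Relative to the median of the astrocyte list in the same library, Slc25a18 differed by -0.65 on the log2 scale between PCT and control and by 0.85 between NPCT and PCT. Between NPCT and control the relative difference was 0.21, or 0.037 without NPCT replicate 3. These are descriptions with no test, since Slc25a18 was chosen as the DEG and single markers differed from the median of their list, with PCT differences of -0.83 to 0.25. The part of glial cell numbers in the Slc25a18 result was not tested.

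**Figure D3:**
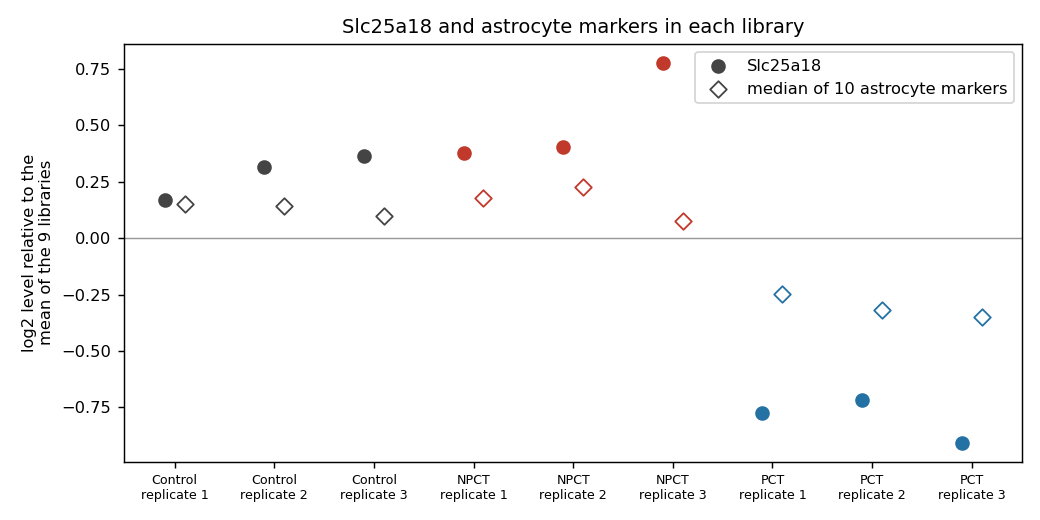
Level of Slc25a18 (filled circles) and median level of 10 astrocyte markers (open diamonds) in each of the 9 libraries, as log2 relative to the mean of all libraries. Both lie below 0 in the 3 PCT libraries and above 0 in the other 6, and in PCT Slc25a18 lies further down than the median of the markers, whose own PCT differences range from -0.83 to 0.25.

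The upstream sequence of the 1 member DEG is shown beside that of the most abundant member, the first chosen for its change and the second for its level. Both are 300 bases long, end shortly after the gene start and come from RefSeq on the build GRCr8, where Slc25a18 lies at chr4:155672919-155673218 on the plus strand and Slc25a4 at chr16:52805271-52805570 on the plus strand. Capitals mark matches to 7 motifs on either strand, as the letters read on the gene's own strand. The GC box, bound by factors of the Sp family, was searched as GGGCGG, and the CCAAT box, bound by NF-Y, by the letters of its name. The ETS motif was searched as CCGGAAG, the TATA box as TATAAA, and the E-box of basic helix-loop-helix factors as CACGTG. For the cyclic AMP response element the letters were TGACGTCA, and for the core of the site of NRF1, a regulator of nuclear genes for mitochondria, they were GCGCATGCG.
Slc25a18: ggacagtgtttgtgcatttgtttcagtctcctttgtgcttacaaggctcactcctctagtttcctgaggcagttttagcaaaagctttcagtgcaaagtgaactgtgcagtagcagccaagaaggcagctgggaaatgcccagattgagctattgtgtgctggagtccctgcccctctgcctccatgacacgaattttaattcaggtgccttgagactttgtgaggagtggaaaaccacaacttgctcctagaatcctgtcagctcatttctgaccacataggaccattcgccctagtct
Slc25a4: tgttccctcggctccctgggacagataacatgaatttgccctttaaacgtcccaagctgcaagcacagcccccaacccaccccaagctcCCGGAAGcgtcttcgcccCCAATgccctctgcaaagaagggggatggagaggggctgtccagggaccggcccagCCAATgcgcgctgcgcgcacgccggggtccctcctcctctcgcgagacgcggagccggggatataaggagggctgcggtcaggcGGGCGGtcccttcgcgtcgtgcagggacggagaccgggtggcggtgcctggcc
The Slc25a18 sequence, at 48% G and C, was the lowest of the 31 member promoters that had an entry. It held none of the 7 motifs, as did that of Slc25a12, which was not a DEG and had 72.3% G and C, and 28.2% of all promoters held none. The Slc25a4 sequence had 67.3% G and C, a GC box at base 248, CCAAT boxes at bases 108 and 164 and an ETS motif at base 90, counted from its first base. These matches describe letters and not binding.

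As a set, the 31 member promoters were rich in G and C, with a median of 62.7% against 52.3% over 27457 rat promoters of the same length. The 27457 promoters were not filtered by gene type or expression, whereas members are protein coding genes with a mean of at least 0.5 FPKM. The part of this filter in the differences below was not tested. A GC box was present in 25 of them, or 80.6%, against 34.9% of all promoters. The CCAAT box was held by 18, or 58.1%, against 37.7%, and the ETS motif by 6, or 19.4%, against 9.22%. A TATA box was found in 1 member promoter, or 3.23%, against 14.3%. The cyclic AMP response element was found in 2, or 6.45%, against 1.91%, the E-box in 3, or 9.68%, against 6.65%, and the NRF1 core in 0 against 1.66%. Members without a matched RefSeq entry included Slc25a36, Slc25a46, Slc25a26, Slc25a30, Slc25a32 and Slc25a37.

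Slc25a12, the calcium-activated aspartate/glutamate carrier known as aralar, was the most abundant member of its group. Its level was 48.9, 46.8 and 47.3 FPKM in control, 39.4, 46.9 and 40.9 FPKM in NPCT and 44.5, 48.4 and 42.1 FPKM in PCT libraries, and the groups overlapped. Its relative citrin, Slc25a13, measured 2.83, 1.94 and 3.19 FPKM in control, 3.45, 2.64 and 3.92 FPKM in NPCT and 2.27, 3.54 and 2.55 FPKM in PCT libraries. Aralar thus exceeded citrin by 10.4-fold to 24.1-fold across the libraries. The log2 ratio of the pair was 4.20 ± 0.36 in control, 3.68 ± 0.41 in NPCT and 4.04 ± 0.26 in PCT neurons (SD, n = 3 each), and exact permutation tests gave p = 0.3 for NPCT and p = 0.6 for PCT against control. Neither carrier was a DEG in any comparison.

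Slc25a22, the other glutamate carrier (chromosome 1 from 214410417 to 214414897 on the minus strand of Rnor_6.0), had the most variable values of all members. It measured 5.37, 0.940 and 0.883 FPKM in control, 1.95, 0.804 and 1.20 FPKM in NPCT and 1.06, 0.667 and 1.08 FPKM in PCT libraries. Control replicate 1 was therefore 2.76-fold above the next library, and 4 of 15958 genes stood at least this far above all other libraries in Control replicate 1. In each of the other libraries 9 to 30 genes stood out in this way. The highest value of Slc25a22 was 8.06 times the lowest, on 23 to 200 fragments. Neighbouring genes on the chromosome also varied between libraries of a group. Rplp2, a ribosomal protein gene 13629 bases away, ranged from 4.05 to 258 FPKM, with 5.25, 4.05 and 258 FPKM in the 3 control libraries. Across all 9 libraries and not within a group, highest and lowest values differed 32.4-fold for Pnpla2, 17.0-fold for Tspan4 and 11.8-fold for Cd151. They differed 5.13-fold for Cend1 and 4.06-fold for Gatd1, but 1.27-fold for Taldo1, all within 60000 bases. Some of these ratios rest on low values. Pnpla2 ranged from 0.060 to 1.94 FPKM, Tspan4 from 0.32 to 5.50 FPKM and Cend1 from 0.47 to 2.41 FPKM. The highest values of the neighbouring genes did not all fall in 1 library, and the cause was not tested. The log2 ratio of Slc25a22 over Slc25a18 had a wide error, at -3.05 ± 1.58 in control, -3.70 ± 0.70 in NPCT and -2.81 ± 0.47 in PCT neurons (SD, n = 3 each).

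**Figure D4:**
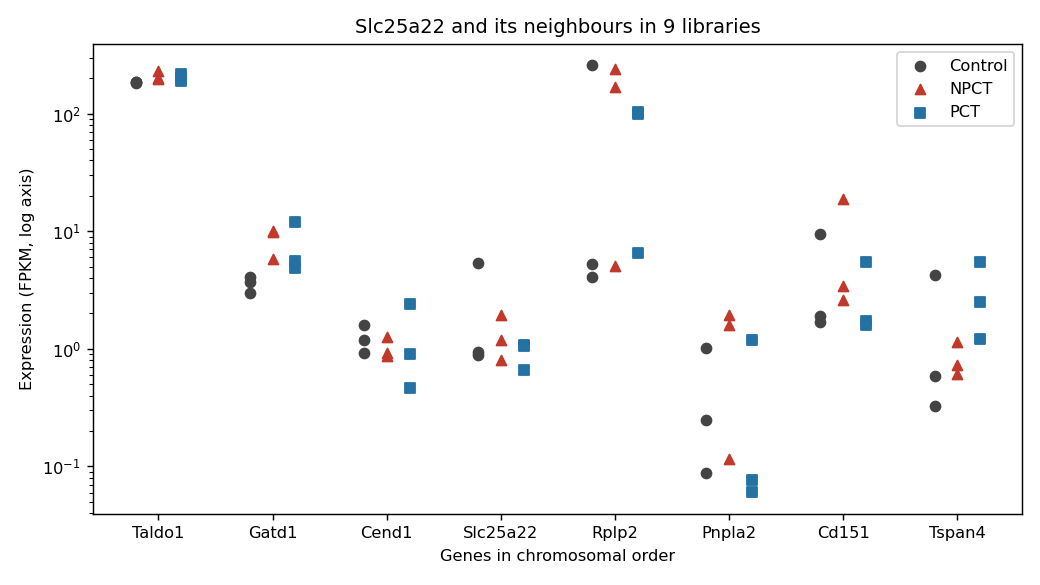
Expression of Slc25a22 and of the genes around it in FPKM on a log axis, 1 point per library and 3 libraries per group, with genes in chromosomal order. Taldo1 lies within a 1.27-fold range, whereas Rplp2 falls into libraries near 5 FPKM and libraries above 100 FPKM within the same group.

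The carriers of ADP, ATP and phosphate had higher means with both peptides, without reaching the threshold. Slc25a4, the ADP/ATP translocase of brain, heart and muscle (ENSRNOG00000010830, chromosome 16 from 49266903 to 49270698 on the plus strand of Rnor_6.0), measured 312, 315 and 312 FPKM in control libraries. With NPCT it measured 393, 366 and 428 FPKM, and with PCT 363, 403 and 464 FPKM. The 6 treated libraries all lay above the 3 controls. The log2 difference was 0.33 with NPCT (standard error 0.09, limma adjusted p = 0.0663) and 0.38 with PCT (standard error 0.09, limma adjusted p = 0.0577), so Slc25a4 was not a DEG in either. Between NPCT and PCT it was -0.05 (limma adjusted p = 0.761). With quantile normalization the NPCT difference was 0.21.

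Slc25a5, the translocase of dividing and many other cells, measured 115, 120 and 120 FPKM in control, 142, 137 and 147 FPKM in NPCT and 128, 125 and 180 FPKM in PCT libraries. All treated libraries lay above the controls here too, with PCT replicate 3 far above the other PCT libraries. The log2 difference was 0.27 with NPCT (limma adjusted p = 0.187) and 0.27 with PCT (limma adjusted p = 0.275). Without PCT replicate 3 the PCT difference was 0.10 (limma adjusted p = 0.274). The NPCT difference stayed at 0.27 without that library, with a limma adjusted p of 0.00748. With a fit of control and NPCT libraries alone the limma adjusted p for NPCT was 0.0115. Over the other 16 of 18 alternatives it ranged from 0.121 (limma-voom) to 0.354 (limma without Control replicate 1). The ratio of Slc25a4 to Slc25a5 was 2.61 to 2.71 in control, 2.68 to 2.91 in NPCT and 2.57 to 3.21 in PCT libraries, and exact permutation tests of its log2 gave p = 0.2 and p = 0.4 against control. The phosphate carrier Slc25a3 measured 248, 227 and 224 FPKM in control, 237, 231 and 238 FPKM in NPCT and 253, 257 and 264 FPKM in PCT libraries. Its PCT libraries lay above the controls with a log2 difference of 0.15 (limma adjusted p = 0.182), or 0.072 with quantile normalization, and its NPCT difference was 0.02. Slc25a31, the translocase of testis, had at most 2 fragments in any library.

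The ATP-Mg/phosphate carriers change the adenine nucleotide content of the matrix when cytosolic calcium rises. Slc25a23, the most abundant, measured 45.0, 46.4 and 47.4 FPKM in control, 54.0, 50.3 and 52.1 FPKM in NPCT and 45.0, 46.4 and 47.1 FPKM in PCT libraries. It had the smallest within-group spread of the 38 members (SD of 0.04 on the log2 scale), and its NPCT libraries lay above all others. The log2 difference of NPCT was 0.17 against control (standard error 0.05, limma adjusted p = 0.078) and 0.17 against PCT (limma adjusted p = 0.0524). Slc25a25 had means of 13.5, 14.7 and 16.0 FPKM in control, NPCT and PCT neurons, with a log2 difference of 0.24 for PCT (limma adjusted p = 0.118). Slc25a24 was low, with 2.01, 1.87 and 1.56 FPKM in control, 1.01, 2.10 and 1.63 FPKM in NPCT and 1.88, 2.04 and 1.72 FPKM in PCT libraries. Slc25a23 exceeded Slc25a24 by 22.4-fold to 53.5-fold, and the exact permutation p of their log2 ratio was 0.3 for NPCT and 0.7 for PCT against control.

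The carriers of di- and tricarboxylates link the tricarboxylic acid cycle to the cytosol, and Slc25a10 differed between the peptides. Slc25a11, the oxoglutarate/malate carrier of the malate-aspartate shuttle, led the group with 73.7, 78.4 and 78.2 FPKM in control, 81.1, 86.9 and 87.4 FPKM in NPCT and 80.4, 77.1 and 85.5 FPKM in PCT libraries. Its NPCT libraries lay above the controls (log2 difference 0.15, limma adjusted p = 0.14, and 0.072 with quantile normalization). Slc25a10, the dicarboxylate carrier (chromosome 10 from 109665682 to 109673143 on the plus strand of Rnor_6.0), measured 16.5, 18.0 and 16.7 FPKM in control, 19.0, 20.3 and 21.6 FPKM in NPCT and 13.5, 15.4 and 15.9 FPKM in PCT libraries. The 3 groups did not overlap, with NPCT highest and PCT lowest. Slc25a10 was higher with NPCT than with PCT by 0.44 on the log2 scale (standard error 0.08, limma adjusted p = 0.0121), or 1.36-fold, below the fold limit of a DEG. Against control the difference was 0.25 with NPCT (limma adjusted p = 0.092) and -0.19 with PCT (limma adjusted p = 0.251), or -0.12 without PCT replicate 1. The citrate carrier Slc25a1 averaged 49.6, 58.7 and 48.3 FPKM in control, NPCT and PCT neurons, and its groups overlapped.

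The enzymes that work with Slc25a11 and Slc25a12 in the malate-aspartate shuttle are Got1, Got2, Mdh1 and Mdh2. They held 0 DEGs among 4 in each limma comparison with control. At an unadjusted p under 0.05 there was 1 with NPCT and 0 with PCT. Over all genes, 14.4% were higher and 14.9% lower at this p with NPCT, and 10.1% and 8.78% with PCT. The value under 0.05 was that of Mdh2, with a log2 difference of -0.18 and a limma adjusted p of 0.108.

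Among the carriers of other amino acids and acylcarnitine, Slc25a29 differed between the peptides. Slc25a29, a carrier of basic amino acids (chromosome 6 from 132735883 to 132747828 on the minus strand of Rnor_6.0), measured 6.12, 7.59 and 7.42 FPKM in control, 8.30, 7.95 and 7.69 FPKM in NPCT and 5.74, 5.17 and 5.99 FPKM in PCT libraries. Its groups did not overlap, and NPCT exceeded PCT by 0.50 on the log2 scale (standard error 0.11, limma adjusted p = 0.0181), or 1.41-fold. Without NPCT replicate 1 or 2, or PCT replicate 1 or 2, the adjusted p rose above 0.05, up to 0.0657. Against control the difference was 0.18 with NPCT (limma adjusted p = 0.278, and 0.087 without Control replicate 1) and -0.31 with PCT (limma adjusted p = 0.146). Slc25a20, the carnitine/acylcarnitine carrier of fatty acid oxidation, was the most abundant of the group. It measured 36.5, 34.4 and 35.8 FPKM in control, 36.0, 36.7 and 40.0 FPKM in NPCT and 38.5, 32.5 and 36.3 FPKM in PCT libraries, and the groups overlapped. The remaining 4 were Slc25a44 (branched-chain amino acids), Slc25a38 (glycine for heme synthesis) and the ornithine carriers Slc25a15 and Slc25a2, with means over the 9 libraries of 16.7, 11.6, 3.40 and 2.27 FPKM. All 6 members had higher means with NPCT than in control neurons, with log2 differences of 0.05 to 0.20. By limma 0 were DEGs, against 0.219% of all genes. An unadjusted limma p under 0.05 was found for 0 of them, while 14.4% of all genes were higher and 14.9% lower at this p.

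Carriers of nucleotides and cofactors were the largest group, with 9 members. Slc25a36 and Slc25a33 both import pyrimidine nucleotides. Slc25a36 measured 84.4, 90.7 and 84.8 FPKM in control, 80.0, 87.1 and 74.8 FPKM in NPCT and 97.5, 93.0 and 95.6 FPKM in PCT libraries, with the PCT libraries above all others. It was lower with NPCT than with PCT, by a log2 difference of -0.24 (standard error 0.07, limma adjusted p = 0.0368), which is 0.844 of the PCT level. This adjusted p rose above 0.05 in 10 of 18 alternatives of processing or library choice, up to 0.109. Slc25a33 measured 22.6, 23.6 and 22.1 FPKM in control, 25.4, 23.8 and 29.1 FPKM in NPCT and 22.6, 20.7 and 23.6 FPKM in PCT libraries. Its log2 difference was 0.19 between NPCT and control (limma adjusted p = 0.168) and 0.22 between NPCT and PCT (limma adjusted p = 0.105), or 0.11 and 0.14 without NPCT replicate 3. The log2 ratio of Slc25a33 over Slc25a36 was -1.93 ± 0.02 in control, -1.63 ± 0.25 in NPCT and -2.10 ± 0.08 in PCT neurons (SD, n = 3 each). The groups did not overlap in any comparison of this ratio, each with an exact permutation p of 0.1, the smallest possible, and an adjusted p of 0.573 over the 21 tests of 7 pairs. The ratio difference between NPCT and control was 0.30, or 0.17 without NPCT replicate 3.

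Slc25a16, linked to coenzyme A, measured 5.37, 6.08 and 4.82 FPKM in control, 4.26, 4.79 and 3.96 FPKM in NPCT and 6.17, 6.24 and 4.89 FPKM in PCT libraries. The NPCT libraries lay below all others, with a log2 difference of -0.32 from control (limma adjusted p = 0.163) and -0.40 from PCT (limma adjusted p = 0.0773). Means of the peroxisomal Slc25a17, the coenzyme A carrier Slc25a42, the S-adenosylmethionine carrier Slc25a26 and the folate carrier Slc25a32 over the 9 libraries were 26.1, 9.68, 7.69 and 4.28 FPKM, and none was a DEG. The NAD carrier Slc25a51 was the lowest member, with 1.70, 0.834 and 1.35 FPKM in control, 0.958, 0.831 and 0.883 FPKM in NPCT and 0.575, 1.10 and 1.05 FPKM in PCT libraries, on 35 to 107 fragments.

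In the iron and glutathione group 0 of 4 members were DEGs by limma in any comparison, and 0 had an unadjusted p under 0.05. Over all genes the DEG shares were 0.219% with NPCT, 2.31% with PCT and 5.75% between the peptides. At this p, 14.4%, 10.1% and 15.6% of all genes were higher and 14.9%, 8.78% and 17.5% lower, in the same order. Slc25a39, a glutathione importer, measured 74.5, 69.4 and 68.5 FPKM in control, 67.2, 64.9 and 86.4 FPKM in NPCT and 74.3, 77.6 and 72.4 FPKM in PCT libraries. Its relative Slc25a40 measured 3.56, 2.39 and 2.50 FPKM in control, 2.38, 2.23 and 2.38 FPKM in NPCT and 2.68, 2.05 and 2.47 FPKM in PCT libraries. The first exceeded the second by 20.9-fold to 37.9-fold, and the exact permutation p of their log2 ratio was 0.2 for both peptides against control. Slc25a40 shares 10114 bases with Rundc3b on the opposite strand, and the library protocol names no strand mark, so reads there cannot be told apart.

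The iron importers mitoferrin-2 and mitoferrin-1 were unequal as well. Slc25a28 (mitoferrin-2) measured 13.8, 14.1 and 17.3 FPKM in control, 18.4, 16.1 and 15.4 FPKM in NPCT and 14.1, 13.2 and 18.8 FPKM in PCT libraries. Slc25a37 (mitoferrin-1) measured 2.73, 1.32 and 2.94 FPKM in control, 2.32, 2.83 and 2.92 FPKM in NPCT and 2.52, 2.95 and 2.75 FPKM in PCT libraries. Mitoferrin-2 exceeded mitoferrin-1 by 4.48-fold to 10.6-fold, and the groups overlapped.

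The brain uncoupling protein relatives Slc25a14, Slc25a27 and Slc25a30 stayed close to each other, with means of 9.74, 9.33 and 8.84 FPKM. Slc25a14 measured 8.87, 11.0 and 10.2 FPKM in control, 9.61, 8.51 and 9.85 FPKM in NPCT and 10.4, 9.49 and 9.81 FPKM in PCT libraries. None of the 3 had an unadjusted limma p under 0.05 in any comparison, and 0 were DEGs. Over all genes the DEG shares were 0.219% with NPCT, 2.31% with PCT and 5.75% between the peptides. At this p, 14.4%, 10.1% and 15.6% of all genes were higher and 14.9%, 8.78% and 17.5% lower, in the same order. Slc25a46, which takes part in the shaping of mitochondria from the outer membrane, measured 29.8, 29.9 and 28.8 FPKM in control, 26.0, 26.2 and 23.6 FPKM in NPCT and 32.9, 29.4 and 24.7 FPKM in PCT libraries. Its NPCT libraries lay below the controls (log2 difference -0.22, limma adjusted p = 0.174). Taken from gene start to gene end, it shares 183 bases with Sap130 on the opposite strand.

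Slc25a34 and Slc25a35 are carriers with little known substrates. Slc25a34 had the largest NPCT difference of the members, 0.57 on the log2 scale (standard error 0.23, limma adjusted p = 0.137). It measured 5.67, 7.22 and 7.12 FPKM in control, 10.6, 11.1 and 8.15 FPKM in NPCT and 6.59, 4.56 and 8.87 FPKM in PCT libraries, so that NPCT lay above control while NPCT and PCT overlapped through PCT replicate 3. Between NPCT and PCT the log2 difference was 0.61 (limma adjusted p = 0.0991), and without PCT replicate 3 it was 0.84 and Slc25a34 was a DEG, whereas it was 0.37 without PCT replicate 2. Slc25a35 measured 1.42, 1.50 and 1.82 FPKM in control, 1.22, 1.68 and 2.20 FPKM in NPCT and 1.34, 1.53 and 1.64 FPKM in PCT libraries.

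Shorter members had higher NPCT differences. The 38 members were 1761 bases long at the median, and the genes tested as a whole 2136 bases. The median NPCT difference was 0.15 in the 19 shorter members and 0.04 in the 19 longer ones, and Spearman's rho between length and difference across the 38 genes was -0.459. For PCT the medians were 0.05 and -0.01, with a rho of -0.371. These are correlations across genes of the same libraries, and genes are not independent replicates. Over all genes, log2 FPKM changed per doubling of gene length by -0.026 to -0.019 in the NPCT libraries, by -0.00045 to 0.029 in the controls and by 0.022, 0.027 and -0.028 in PCT replicates 1, 2 and 3, taking each gene relative to its mean. With each library's length trend removed the NPCT median of the members was 0.062 instead of 0.076.

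**Figure D5:**
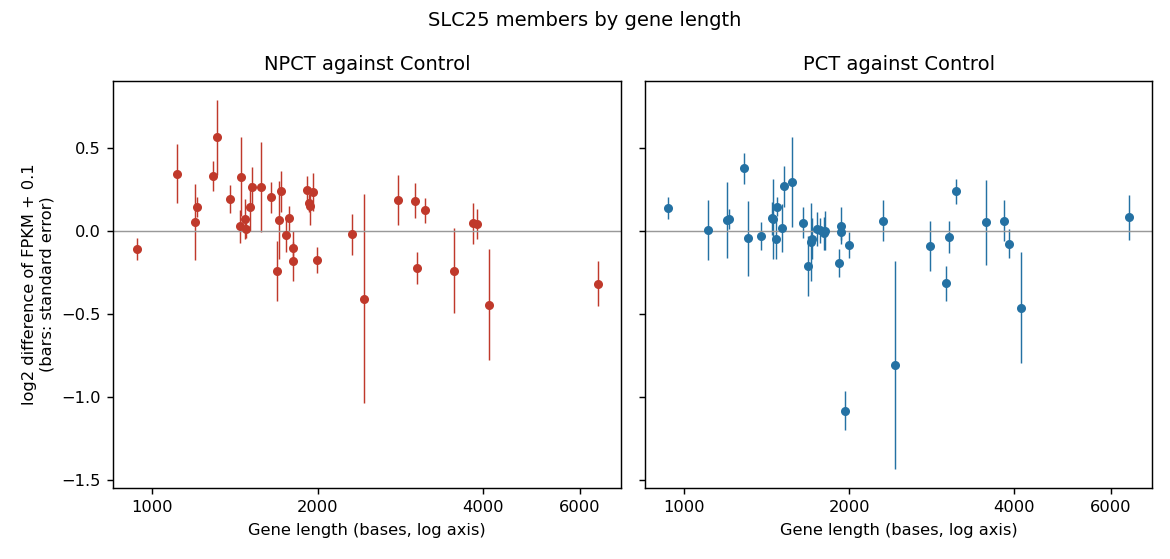
Difference of log2 (FPKM + 0.1) from control against gene length in bases (log axis) for the 38 members, with NPCT at the left and PCT at the right and bars of 1 standard error. NPCT differences above 0.3 belong to genes shorter than the member median of 1761 bases, and the low point in the PCT panel is Slc25a18 at -1.08.

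In 4 places a member lies close to an SLC25 gene below the minimum, with 1 other gene between them in 3 of the places and 0 between Slc25a24 and Slc25a54. The minimum that chose the members fixes which gene of a pair is the higher, so the levels are given as a description. Slc25a5 averaged 135 FPKM beside Slc25a43 with 0.133 FPKM, 19671 bases away on the X chromosome. Slc25a23 averaged 48.2 FPKM beside Slc25a41 with 0.106 FPKM, 2842 bases away. The pairs Slc25a29 and Slc25a47, 14451 bases apart, and Slc25a24 and Slc25a54, 4644 bases apart, averaged 6.89 and 0.0520 FPKM and 1.76 and 0.0497 FPKM.

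Transporters of mitochondria outside the SLC25 symbols were compared by the same rule. Sfxn5, a sideroflexin, was a DEG with PCT, with 101, 104 and 103 FPKM in control, 105, 107 and 110 FPKM in NPCT and 62.7, 64.0 and 66.9 FPKM in PCT libraries. The log2 difference was -0.67 from control (standard error 0.05, limma adjusted p = 0.000314) and 0.73 between NPCT and PCT (limma adjusted p = 0.000178). Astrocyte markers were lower with PCT as well (median difference -0.46, with 9 of 10 lower and 5 DEGs), and their part in the Sfxn5 result was not tested. Sfxn5 was 1 of 4 sideroflexins tested, and Sfxn1 had a log2 difference of -0.31 with NPCT (limma adjusted p = 0.159). Of the pyruvate carrier subunits, Mpc1 was higher with PCT by 0.38 (limma adjusted p = 0.0139, and 0.0572 to 0.0649 without 1 control library), below the fold limit, and Mpc2 had a difference of 0.37 with NPCT (limma adjusted p = 0.0792). Among 10 genes of calcium uptake and exchange, 0 were DEGs against control by limma. At an unadjusted p under 0.05 there were 2 with NPCT and 1 with PCT. Over all genes, 14.4% were higher and 14.9% lower at this p with NPCT, and 10.1% and 8.78% with PCT. Smdt1, the regulator EMRE of the uniporter, had a log2 difference of 0.74 with NPCT (limma adjusted p = 0.0545). Slc8b1, the sodium/calcium exchanger, had a difference of -0.70 with PCT (limma adjusted p = 0.199), from -0.91 to -0.45 over 18 alternatives. Smdt1 was a DEG with NPCT in 6 of 18 alternatives (adjusted p from 0.00318 to 0.169 over all of them). Slc8b1 passed as a DEG between NPCT and PCT, at 0.94 (limma adjusted p = 0.0462), but in 5 of 18 alternatives only, with adjusted p-values up to 0.143. Its NPCT libraries measured 2.17, 1.86 and 3.35 FPKM, the highest in NPCT replicate 3, and without that library the difference was 0.70 (limma adjusted p = 0.122).

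An outer membrane list held the porins Vdac1, Vdac2 and Vdac3 together with Tspo, which is not a porin. With NPCT these porins had log2 differences of 0.08, -0.07 and -0.14 in that order. Family genes under other symbols (3 tested), the outer membrane list (4) and ABC transporters (4) held 0 DEGs against control in limma. The shares over all genes were 0.219% with NPCT and 2.31% with PCT. In these lists unadjusted p-values under 0.05 numbered 4 with NPCT and 2 with PCT. Over all genes, 14.4% were higher and 14.9% lower at this p with NPCT, and 10.1% and 8.78% with PCT. The lowest p of each list belonged to Mtch1 (0.35, limma adjusted p = 0.0657), Tspo (1.01, limma adjusted p = 0.0709) and Abcb6 (0.35, limma adjusted p = 0.0593) with NPCT, and to Ucp2 (-0.75, limma adjusted p = 0.147), Vdac2 (0.18, limma adjusted p = 0.223) and Abcb6 (0.15, limma adjusted p = 0.407) with PCT. The Abcb6 difference with PCT ranged from 0.054 to 0.24 over 18 alternatives. Ucp2 and Tspo were DEGs between the peptides, 1.42 and 1.57 higher with NPCT on the log2 scale (limma adjusted p = 0.00995 and 0.012). Against control, Tspo was a DEG with NPCT in 4 of 18 alternatives (adjusted p from 0.0126 to 0.202 over all of them) and Ucp2 with PCT in 1, without NPCT replicate 3 (adjusted p = 0.028). Between the peptides both were DEGs in all 18 alternatives and had their highest value in NPCT replicate 3, the library with the high microglia markers, at 18.6 FPKM for Ucp2 and 24.5 FPKM for Tspo. All 12 microglia markers were also higher in mean with NPCT than with PCT, by a median log2 difference of 2.09, and 8 of them were DEGs. With PCT all 12 had lower means than in control neurons, 4 of them as DEGs, and no marker was at 0 in all libraries. Their part in the results of Ucp2 and Tspo was not tested.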

How the data were processed

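RNA was measured in 9 libraries, 3 per group by the titles in the labels. The authors aligned reads with HISAT2 2.0.5, counted them on genes with featureCounts 1.5.0-p3 and deposited FPKM values; the build Rnor_6.0 comes from the submitters' processing notes. How reads with several matches were counted is not given in the sources used here. The authors tested counts with DESeq2; the table holds FPKM and a gene length, so limma 3.58.1 in R 4.3.3 was used instead. FPKM times length and a divisor for each library gave whole fragments (within 0.05) in 100% of values. This divisor was 0.977 to 1.03 times the fragments counted on genes in the library. A median-ratio size factor, applied to each library, was the same in all 9. Genes with a mean of at least 0.5 FPKM were fitted as log2(FPKM + 0.1), with a mean per group and an intensity trend. Benjamini-Hochberg adjustment covered the genes of a comparison. DEGs needed a fold change above 1.5 with an adjusted p not above 0.05. Log2 differences understate changes of low genes. Carrier pairs were tested on log2 ratios by exact two-sided permutation.

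Members, gene lists and markers were chosen with earlier results of these data known. The changes described are those of each member DEG and of the 8 members with the smallest p in each comparison. Levels are given per library for the leading member of each role, the 3 highest and the 3 lowest members and the carrier pairs. In the other transporter lists, the gene with the smallest p against control is named. Sfxn5, Slc8b1, Ucp2 and Tspo were also named for the comparison of the peptides after their values were seen, as were Slc25a22 and its neighbours. Promoters were matched by symbol. The values of 1 member, which is kept in all counts and medians, are not reported here. The procedure was tested on simulated data. Alternatives were pseudocounts of 1 and 0.01, a minimum of 1 FPKM, no filter, quantile normalization, a fit restricted to the 2 groups in question, a replicate block, removal of the length trend, limma-voom on the recovered fragments and leaving out each library, 18 in all. FPKM as deposited were also fitted, but differ from the scaled values by a constant factor and are not counted. The relation of Slc25a18 to the astrocyte list was added after seeing the data.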

Additional observations from a re-analysis of the deposited data

Results flagged for a closer look

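Slc25a18 was noted because the effects of the 2 peptides on it differed. The NPCT effect exceeded the PCT effect by 1.32 on the log2 scale (limma, Benjamini-Hochberg adjusted p = 0.000544), with the 3 NPCT libraries at 14.6, 14.8 and 19.3 FPKM and the 3 PCT libraries at 6.49, 6.77 and 5.92 FPKM.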

How the results depend on the processing

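Slc25a18 was a DEG with PCT and between the peptides in all 18 alternatives of processing or library choice, with log2 differences of -1.14 to -0.99 (adjusted p from 0.000615 to 0.0152) and 1.19 to 1.39 (adjusted p from 0.000115 to 0.00903). The number of member DEGs was 0 with NPCT and 1 with PCT in every alternative. Between the peptides it was 1, except without PCT replicate 3, where it was 2 (leave-one-out range 1 to 2) and Slc25a34 (0.84) joined Slc25a18. With the replicate block the numbers were 0, 1 and 1. The replicate numbers did not pair the libraries (correlations of -0.0725 to 0.0344 between same-numbered libraries), and the block moved the NPCT count over all genes from 35 to 319.

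Median member differences were small. With NPCT, leaving out 1 library gave 0.061 to 0.1194, the latter without NPCT replicate 2. With PCT, leaving out 1 library gave -0.0054 (without PCT replicate 3) to 0.0185, with -0.0015 without Control replicate 2, and removing the length trend gave 0.0331. Between the peptides, leaving out 1 library gave 0.0245 to 0.1253, the latter without PCT replicate 3, while quantile normalization gave -0.0072 and removing the length trend -1e-04. The cause of these shifts was not tested. The DEG count over all genes ranged from 0 to 579 with NPCT (35 as reported), from 172 to 398 with PCT (368) and from 454 to 1623 between the peptides (918). The NPCT count was 562 without PCT replicate 3 and 220 without PCT replicate 1, 0 to 2 without any other library, and 391 with limma-voom. Of the NPCT DEGs over all genes 24 of 35 were higher, against 318 of 391 with limma-voom, 111 of 189 with quantile normalization and 1 of 3 with the length trend removed, and between the peptides 699 of 918 were higher with NPCT, against 614 of 938 with the length trend removed. Low members rest on few fragments, such as 29 to 58 per library for Slc25a35 and 31 to 51 for Slc25a2. This depth may limit what can be detected, which was not tested.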
